A study of Homo sapiens with 9 samples.

Results

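The mRNA levels of 9 genes of pericellular proteolysis, PLAU, PLAT, PLAUR, SERPINE2, MMP14, ADAM17, TIMP1, TIMP2 and TIMP3, were examined in breast cancer cells exposed to TXX-1-10 or rimonabant. The genes were taken by symbol, and all 9 were present among the 27615 genes of the longest list. They were chosen with earlier results of these data known, so the shares over all genes given below are a description and not a test of the 9. RNA was sequenced from MDA-MB-231, an established human triple-negative breast cancer line, in 9 libraries. The vehicle group (3 libraries) received DMSO, the rimonabant group (3 libraries) received rimonabant, a blocker of the CB1 cannabinoid receptor, and the TXX-1-10 group (3 libraries) received TXX-1-10, a compound derived from rimonabant. No genetic change of the line is named in the labels of any group. How much of each compound the sequenced cells received, and for how long, is not given in the sources used here, so the 2 compounds could not be set at a known matched dose. The labels do not say whether replicates came from separate cultures, so that p-values measure only the spread between these libraries, which may be technical.

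Urokinase (PLAU) and tissue plasminogen activator (PLAT) are serine proteases that cut plasminogen into plasmin, which digests fibrin and several matrix proteins. The urokinase receptor (PLAUR) holds urokinase at the cell surface, and protease nexin-1 (SERPINE2) is a serpin that inactivates both plasminogen activators and thrombin. MMP14 is a membrane-anchored metalloproteinase that cleaves collagen and activates MMP2, ADAM17 is a membrane sheddase that releases TNF and ligands of the EGF receptor, and the TIMP proteins inhibit metalloproteinases. Proteolysis at the surface of invasive breast cancer cells is best known for opening paths through the extracellular matrix.

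The library totals behind the normalised values ranged from 17078370 to 19277808 reads. Each list as used here ended partway, so that 4237 to 27615 genes were listed per library, and a gene absent from a list was not counted as 0. Hence PLAU, PLAT, PLAUR, MMP14, ADAM17, TIMP1 and TIMP2 were measured in all 9 libraries, whereas SERPINE2 and TIMP3 were missing from rimonabant replicate 1 and were measured in the other 8. A pair of libraries stood apart from the rest of their groups, rimonabant replicate 1 and TXX-1-10 replicate 3, in which longer genes had lower counts relative to the group (Spearman rho of -0.693 and -0.692, against 0.477 to 0.667 in the other 4 treated libraries, over 4237 genes), and results below are given without them where it matters. A fit with a gene length correction and a fit without both libraries were run for all 9 genes. The 6 markers of the line (VIM, CD44, AXL, MSN, LGALS1 and ANXA1) were above 10 FPKM, the count scaled by gene length and library total, in all 9 libraries, and the highest value of any fibroblast marker was 0.798 FPKM, of any endothelial marker 1.25 FPKM and of any leukocyte marker 0.554 FPKM. Of the markers that define the triple-negative state, ESR1 did not exceed 0.0314 FPKM and PGR did not exceed 0.0459 FPKM in the libraries that listed them, whereas ERBB2 was measured at 6.996 to 9.523 FPKM.

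Promoter letters of 4 genes that moved in different ways are shown first, so that their levels can be read beside them. Sequences come from RefSeq promoter windows of 300 bases on GRCh38.p14, which were used for 7 of the 9 genes, and 250 of these bases lie before the start site. No window of PLAT or TIMP2 was searched, so their promoter letters are not described here. Capitals mark letters of 3 motifs searched on both strands, the AP-1 element TGANTCA, the GC box GGGCGG, which reads as CCGCCC on the other strand, and the ETS element CCGGAAGT. The urokinase stretch (chr10:73911076-73911102, plus strand) is the 27 bases with the GC boxes nearest to the start of PLAU, and it also lies in an exon of C10orf55 on the opposite strand. The receptor stretch (chr19:43670339-43670365, minus strand) is the 27 bases around the AP-1 element, which GENCODE 29 places inside the first exon of PLAUR. The TIMP1 stretch (chrX:47582186-47582312, plus strand) runs up to the first annotated exon of the gene. The ADAM17 stretch (chr2:9555853-9556080, minus strand) ends where the first exon of an annotated ADAM17 transcript begins and lies inside the annotated gene, since another transcript starts farther upstream, and 182 of its bases lie in an exon of the long noncoding RNA AC073195.1 on the opposite strand.
PLAU: gggagGGGCGGcgccgGGGCGGgccct
PLAUR: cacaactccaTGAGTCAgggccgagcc
TIMP1: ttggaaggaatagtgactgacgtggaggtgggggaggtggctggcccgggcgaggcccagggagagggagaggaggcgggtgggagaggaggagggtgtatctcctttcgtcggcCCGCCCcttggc
ADAM17: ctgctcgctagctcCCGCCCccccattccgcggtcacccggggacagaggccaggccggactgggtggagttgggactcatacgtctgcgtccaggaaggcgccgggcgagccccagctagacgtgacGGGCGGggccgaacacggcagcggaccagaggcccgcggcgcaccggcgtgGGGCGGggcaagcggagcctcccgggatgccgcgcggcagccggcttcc

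The AP-1 letters were found in 1 of the 9 windows of these genes, that of PLAUR, and in 7.73% of 34796 promoter windows of the same length. GC boxes were found in 7 of the 9 windows, those of 6 of the 7 genes (PLAU, SERPINE2, MMP14, TIMP1, TIMP3 and ADAM17), against 44.9% of all windows. Among these 6 genes were genes with higher and genes with lower levels after treatment. The ETS letters were found in none of the 9 windows, against 4.13% of all windows. A match describes letters only and says nothing of whether a factor bound there.

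In vehicle-treated cells the metalloproteinase MMP14 and the inhibitors TIMP1 and TIMP2 were by far the most abundant of the 9 mRNAs per length. MMP14 had a level of 75.6 ± 1.65 FPKM (SD, n = 3), TIMP1 of 75.3 ± 4.59 and TIMP2 of 62.3 ± 0.842. The plasminogen activators and the receptor formed a middle tier, with PLAU at 25.8 ± 0.697, PLAT at 24.5 ± 0.432 and PLAUR at 22.8 ± 0.266 FPKM. ADAM17 (6.42 ± 0.269), SERPINE2 (3.41 ± 0.129) and TIMP3 (2.58 ± 0.108) were lowest. Of the neighbours in this order, MMP14 and TIMP1 overlapped between libraries and the others did not. The order changed after TXX-1-10, where TIMP1 led with 184 ± 23.1 FPKM, followed by MMP14 and TIMP2, whose libraries overlapped. ADAM17 (13.2 ± 0.871) then stood beside PLAU (11.9 ± 1.25) with overlapping libraries, although ADAM17 had been the seventh and PLAU the fourth of the 9 in vehicle. The summed level of the 9 genes was 298.6 FPKM in vehicle, 361 in rimonabant and 444.7 in TXX-1-10, a sum that rests mostly on TIMP1, MMP14 and TIMP2.

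Against vehicle, TXX-1-10 was accompanied by lower mRNA of both plasminogen activators and of TIMP3, and by higher mRNA of PLAUR, SERPINE2, MMP14, ADAM17, TIMP1 and TIMP2. All 9 passed edgeR's quasi-likelihood test (adjusted p under 0.05, adjusted over all genes of the fit), 6 higher and 3 lower. In the same comparison 74.4% of the 4236 genes of the 9-library fit passed (30.5% higher, 43.8% lower), as did 75.3% of the 9369 genes of the 8-library fit (34.7% higher, 40.6% lower), so a passed test was common here. The libraries of the 2 groups did not overlap for any of the 9 genes, against 78.7% and 76.4% of all genes in the respective fits. A log2 fold change of at least 1 in size was reached by 6 of the 9 (SERPINE2, TIMP1 and ADAM17 higher, and PLAU, PLAT and TIMP3 lower), against 11.8% of genes in the 9-library fit (4.2% higher, 7.6% lower) and 12.7% in the 8-library fit (5.28% higher, 7.39% lower). The median size of the log2 fold change was 1.04 over the 9 genes and 0.37 over all genes of the 9-library fit. For these bulk libraries, a change in the level per cell cannot be told apart from a change in the share of cells that carry the mRNA.

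After rimonabant, PLAUR, SERPINE2, ADAM17, TIMP1 and TIMP2 were higher than in vehicle and PLAU, PLAT and TIMP3 were lower, while MMP14 did not pass. These were 8 of the 9 genes in the edgeR test, against 48.9% of genes in the 9-library fit (23.7% higher, 25.2% lower) and 46.5% in the 8-library fit (23.7% higher, 22.8% lower). The libraries of the 2 groups did not overlap for any of the 9 genes, as for 61.1% and 65.4% of all genes. None of the 9 reached a log2 fold change of 1, as 1.13% and 1.49% of all genes did. The median size over the 9 genes was 0.44, against 0.18 over all genes. Both comparisons share the vehicle libraries and are not independent of each other.

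**Figure D1:**
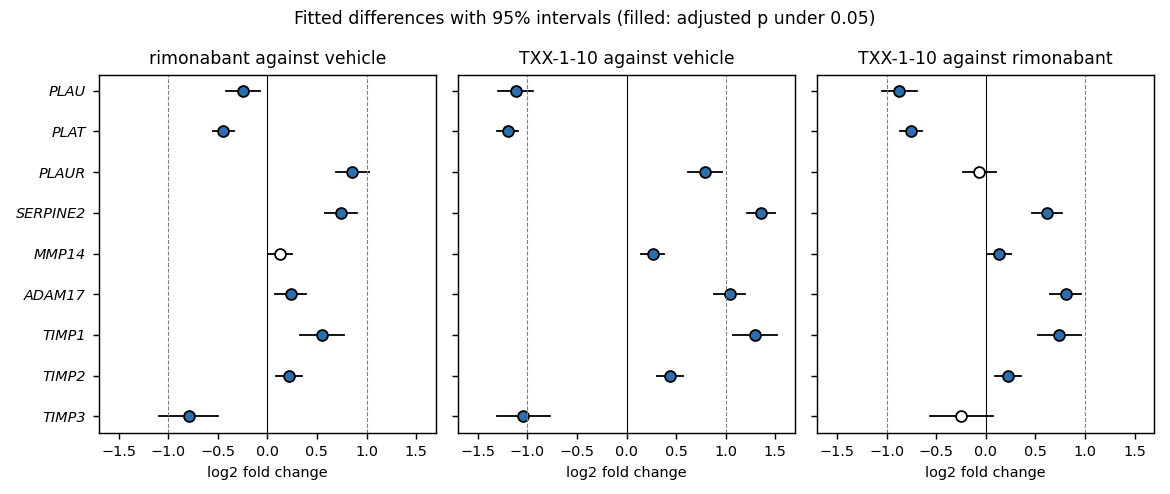
Fitted log2 fold change (x axis) of each gene (y axis) in the 3 comparisons, with 95% intervals as lines, filled points for an adjusted p under 0.05 and dashed lines at -1 and 1. In TXX-1-10 against rimonabant, the intervals of PLAUR and TIMP3 include 0.

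PLAU (ENSG00000122861, chromosome 10, 73909177 to 73917497, plus strand, GRCh38) encodes urokinase. Its level was 26.2, 25.0 and 26.2 FPKM in vehicle replicates 1 to 3, 23.3, 20.7 and 21.4 FPKM in rimonabant, and 11.5, 10.9 and 13.3 FPKM in TXX-1-10. The 3 groups did not overlap, and the TXX-1-10 libraries were lowest. The level fell 2.17-fold from vehicle to TXX-1-10 (log2 fold change -1.12, SE 0.08, edgeR adjusted p = 4.73e-07) and was 1.83-fold lower in TXX-1-10 than in rimonabant (log2 fold change -0.87, edgeR adjusted p = 5.72e-06). Rimonabant was 1.19-fold lower than vehicle (log2 fold change -0.25, edgeR adjusted p = 0.0214), a call that was lost when any of 4 single libraries was left out (vehicle replicate 1 or 3, or rimonabant replicate 2 or 3, with edgeR adjusted p of up to 0.0712). With the gene length correction the log2 fold change after TXX-1-10 was -0.99. An exon of C10orf55 on the opposite strand shares 31.1% of the exon length of PLAU, and its own count did not exceed 16 in a library.

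PLAT (ENSG00000104368, chromosome 8, 42175233 to 42207724, minus strand) encodes tissue plasminogen activator, the activator that works best on fibrin. The vehicle libraries held 24.1, 24.9 and 24.3 FPKM, the rimonabant libraries 18.9, 17.8 and 17.2, and the TXX-1-10 libraries 10.6, 10.4 and 10.9. The groups did not overlap and the 3 TXX-1-10 libraries lay close together (SD 0.227). PLAT fell by 1.20 on the log2 scale after TXX-1-10 (SE 0.05, edgeR adjusted p = 9.75e-09) and by 0.44 after rimonabant (edgeR adjusted p = 5.55e-05), and the TXX-1-10 libraries were 1.69-fold lower than the rimonabant libraries (edgeR adjusted p = 5.43e-07). The ratio of PLAU to PLAT, both activators of plasminogen, lay above 1 in all 9 libraries and did not exceed 1.24.

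PLAUR (ENSG00000011422, chromosome 19, 43646095 to 43670547, minus strand) encodes the receptor of urokinase. Vehicle libraries held 22.9, 22.5 and 23.0 FPKM, rimonabant libraries 44.9, 39.1 and 39.7, and TXX-1-10 libraries 37.3, 37.2 and 43.7. All 6 treated libraries lay above all vehicle libraries, and the treated groups overlapped each other. The level rose 1.81-fold after rimonabant (log2 fold change 0.85, SE 0.08, edgeR adjusted p = 1.86e-05) and 1.73-fold after TXX-1-10 (0.79 on the log2 scale, edgeR adjusted p = 4.96e-06). The difference between the compounds was not detectable (log2 fold change -0.06, 95% interval -0.23 to 0.10, edgeR adjusted p = 0.464), an interval that does not show that they act alike. The highest PLAUR library of each treated group was the one with the length trend, rimonabant replicate 1 and TXX-1-10 replicate 3, and without both the log2 fold changes against vehicle were 0.79 and 0.71.

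The ratio of receptor to ligand mRNA was also taken within each library. PLAUR to PLAU was 0.873 to 0.9 in vehicle, 1.86 to 1.93 in rimonabant and 3.25 to 3.41 in TXX-1-10 libraries, with means of 0.883 ± 0.0143, 1.89 ± 0.0341 and 3.32 ± 0.0857 (SD, n = 3 each). No library of a group overlapped another group. A ratio within a library does not depend on the library total, and for 3 against 3 libraries an exact permutation test cannot go below p = 0.1.

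SERPINE2 (ENSG00000135919, chromosome 2, 223975112 to 224039319, minus strand) encodes the serpin protease nexin-1. It was measured at 3.55, 3.38 and 3.30 FPKM in vehicle, at 5.75 and 5.66 in rimonabant replicates 2 and 3, and at 8.26, 8.60 and 9.37 in TXX-1-10. The groups did not overlap, and counts behind these values were 505 to 539, 932 to 961 and 1406 to 1534 reads. SERPINE2 rose 2.56-fold after TXX-1-10 (log2 fold change 1.36, SE 0.06, edgeR adjusted p = 1.9e-09) and 1.67-fold after rimonabant (log2 fold change 0.74, edgeR adjusted p = 1.09e-05), with 1.53-fold higher levels in TXX-1-10 than in rimonabant (edgeR adjusted p = 1.01e-05).

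MMP14 (ENSG00000157227, chromosome 14, 22836557 to 22849027, plus strand) encodes the membrane-type collagenase and moved least of the 9 genes against vehicle. Vehicle libraries held 75.1, 74.2 and 77.4 FPKM, rimonabant libraries 87.4, 80.1 and 80.1, and TXX-1-10 libraries 90.1, 87.7 and 94.2. The 3 groups did not overlap, and the steps between them were small. MMP14 rose 1.2-fold after TXX-1-10 (log2 fold change 0.26, SE 0.05, edgeR adjusted p = 0.0011). Rimonabant against vehicle did not pass (log2 fold change 0.13, 95% interval 0.01 to 0.24, edgeR adjusted p = 0.0695), but it passed in 7 of 22 other settings. TXX-1-10 against rimonabant passed narrowly (log2 fold change 0.14, edgeR adjusted p = 0.0436) and missed the threshold in 11 of 22 other settings, with edgeR adjusted p of up to 0.143.

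ADAM17 (ENSG00000151694, chromosome 2, 9488486 to 9556732, minus strand) encodes the TNF-converting sheddase. Its vehicle libraries held 6.45, 6.68 and 6.14 FPKM, its rimonabant libraries 6.94, 8.09 and 7.61, and its TXX-1-10 libraries 13.4, 13.9 and 12.2. The TXX-1-10 libraries lay far above the others, and the lowest treated values were those of the libraries with the length trend, on the longest of the 9 genes (10750 bases of exon). ADAM17 rose 2.06-fold after TXX-1-10 (log2 fold change 1.04, SE 0.07, edgeR adjusted p = 4.04e-07), and it was 1.75-fold higher than in rimonabant (log2 fold change 0.81, edgeR adjusted p = 4.65e-06). After rimonabant the log2 fold change was 0.23 (edgeR adjusted p = 0.0213), a call lost without vehicle replicate 1 or 3 or rimonabant replicate 2 or 3 (edgeR adjusted p of up to 0.0812). IAH1 on the opposite strand shares 12.3% of the exon length of ADAM17 and reached 613 counts, and whether the counting used strand is not given in the sources used here.

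TIMP1 (ENSG00000102265, chromosome X, 47582313 to 47586789, plus strand) encodes a secreted metalloproteinase inhibitor that blocks most soluble MMPs but is a poor inhibitor of MMP14. Vehicle libraries held 80.4, 71.6 and 73.7 FPKM, rimonabant libraries 123.3, 103.2 and 104.4, and TXX-1-10 libraries 173, 169.2 and 211. The groups were separate, and the highest treated values were those of rimonabant replicate 1 and TXX-1-10 replicate 3, on the shortest of the 9 genes (1541 bases of exon). TIMP1 rose 2.45-fold after TXX-1-10 (log2 fold change 1.29, SE 0.10, edgeR adjusted p = 9.8e-07) and 1.47-fold after rimonabant (log2 fold change 0.55, edgeR adjusted p = 0.0013). TXX-1-10 was 1.67-fold above rimonabant (edgeR adjusted p = 8.89e-05). Without those 2 libraries the changes against vehicle were 1.18 and 0.46 on the log2 scale, and with the gene length correction they were 1.44 and 0.55.

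TIMP2 (ENSG00000035862, chromosome 17, 78852977 to 78925387, minus strand) encodes the inhibitor that also bridges MMP14 to pro-MMP2. Its levels were 62.2, 63.2 and 61.5 FPKM in vehicle, 77.9, 69.9 and 69.4 in rimonabant, and 84.4, 80.7 and 88.4 in TXX-1-10. The groups did not overlap, and the rise was smaller than that of TIMP1. The log2 fold change was 0.44 after TXX-1-10 (SE 0.06, edgeR adjusted p = 6.08e-05), 0.22 after rimonabant (edgeR adjusted p = 0.0115) and 0.22 between the compounds (edgeR adjusted p = 0.00694).

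TIMP3 (ENSG00000100234, chromosome 22, 32801701 to 32863043, plus strand) encodes the matrix-bound TIMP that also inhibits ADAM17, and of the 3 TIMPs tested it was the one that fell. TIMP4 had 7 to 24 reads in the 5 libraries that listed it and was not tested. Vehicle libraries held 2.52, 2.51 and 2.70 FPKM, rimonabant replicates 2 and 3 held 1.58 and 1.38, and TXX-1-10 libraries held 1.23, 1.04 and 1.49. Treated libraries lay below all vehicle libraries and overlapped each other, and they rest on 88 to 137 reads, the fewest of the 9 genes. TIMP3 was 2.06-fold lower after TXX-1-10 (log2 fold change -1.04, SE 0.12, edgeR adjusted p = 7.78e-06) and 1.74-fold lower after rimonabant (log2 fold change -0.80, edgeR adjusted p = 0.000603). The compounds could not be separated (log2 fold change -0.24, 95% interval -0.56 to 0.07, edgeR adjusted p = 0.167), but without TXX-1-10 replicate 3 the value was -0.39 (edgeR adjusted p = 0.0186). Under a log2(FPKM + 1) scale the change after TXX-1-10 was -0.67, since that scale understates changes at low levels.

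The balance of protease and inhibitor mRNA was described by ratios within libraries. TIMP1 to MMP14 was 0.953 to 1.07 in vehicle, 1.29 to 1.41 in rimonabant and 1.92 to 2.24 in TXX-1-10. The highest value of each treated group was that of its library with the length trend, and the other libraries reached 1.30 and 1.93. TIMP2 to MMP14 moved little, from 0.795 to 0.852 in vehicle, 0.867 to 0.891 in rimonabant and 0.92 to 0.939 in TXX-1-10, with groups that did not overlap. Within the TIMP family the mRNAs moved apart, and TIMP1 to TIMP3 was 27.3 to 31.9 in vehicle, 65.2 to 75.5 in the 2 rimonabant libraries and 140.8 to 162.8 in TXX-1-10. These are ratios of mRNA per length and not of protein or of protease activity.

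**Figure D2:**
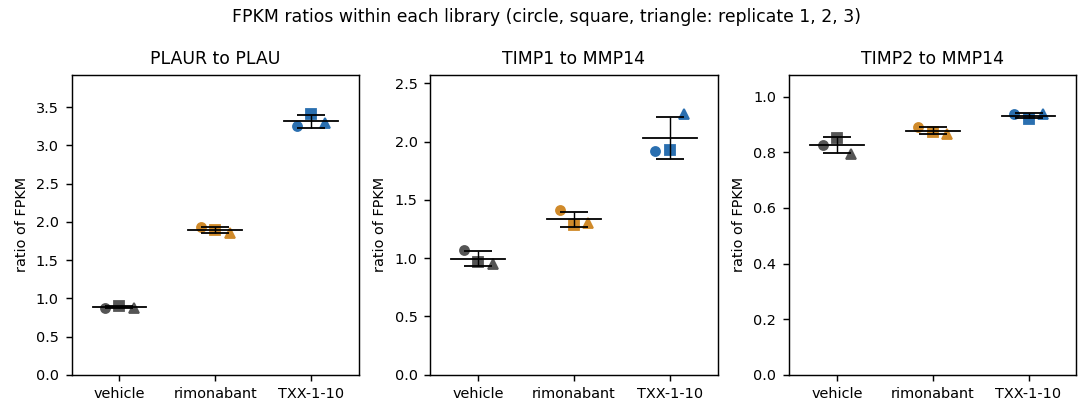
Ratio of FPKM values within each library (y axis, from 0) by treatment (x axis) for PLAUR to PLAU, TIMP1 to MMP14 and TIMP2 to MMP14, where symbols are libraries, long bars are group means and error bars are SD. The PLAUR to PLAU ratio steps from about 0.883 in vehicle to 1.89 in rimonabant and 3.32 in TXX-1-10.

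Set directly beside rimonabant, TXX-1-10 differed for 7 of the 9 genes in the edgeR test, with 5 higher (SERPINE2, MMP14, ADAM17, TIMP1 and TIMP2) and 2 lower (PLAU and PLAT). In this comparison 64.5% of genes passed in the 9-library fit (25.1% higher, 39.4% lower) and 60.6% in the 8-library fit (26.7% higher, 33.9% lower). The same 7 genes had libraries that did not overlap between the compounds, against 63.6% and 66.9% of all genes. None of the 9 reached a log2 fold change of 1, against 5.93% and 6.41% of all genes. The median size was 0.62 over the 9 genes and 0.26 over all genes of the 9-library fit. PLAU (-0.87) and ADAM17 (0.81) differed most, and PLAUR (-0.06) differed least.

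Other genes of the same systems were counted from 7 lists of 126 genes, of which 111 were listed in a library and 44 had enough libraries and a mean of at least 1 FPKM to be tested. In TXX-1-10 against vehicle 35 of the 44 passed (20 higher, 15 lower), beside 74.4% and 75.3% of all genes in the 9-library and 8-library fits, and 9 reached a log2 fold change of 1, beside 11.8% and 12.7%. For rimonabant against vehicle 28 passed (15 higher, 13 lower), beside 48.9% and 46.5% of all genes, and 1 reached that size, beside 1.13% and 1.49%. Between the compounds 26 passed (16 higher, 10 lower), beside 64.5% and 60.6% of all genes, and 2 reached it, beside 5.93% and 6.41%.

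Of 9 tested genes of the plasminogen list, 3 were higher and 5 lower after TXX-1-10, beside 30.5% higher and 43.8% lower over all genes of the 9-library fit. ANXA2 and S100A10, which together form a plasminogen and PLAT receptor, had log2 fold changes of -0.71 and -0.78 after TXX-1-10 and of -0.45 and -0.37 after rimonabant (largest edgeR adjusted p = 0.0123). LRP1, the endocytic receptor that clears PLAU and PLAT bound to their inhibitors, did not pass after TXX-1-10 (-0.38 on the log2 scale, edgeR adjusted p = 0.104) and was lower after rimonabant (-0.72, edgeR adjusted p = 0.0124). Its lowest values were those of the libraries with the length trend, 2.27 FPKM in rimonabant replicate 1 and 2.65 FPKM in TXX-1-10 replicate 3, against 3.09 to 4.60 FPKM in the other treated libraries. Without both, LRP1 was lower after TXX-1-10 (-0.18, edgeR adjusted p = 0.00847) and after rimonabant (-0.56, edgeR adjusted p = 4.22e-08), and it also passed after TXX-1-10 with the gene length correction (-0.27, edgeR adjusted p = 0.0292), whereas without TXX-1-10 replicate 3 alone it did not (-0.18, edgeR adjusted p = 0.271). TFPI2, a matrix-associated inhibitor of plasmin, rose by 1.33 after TXX-1-10 (edgeR adjusted p = 1.58e-07). SERPINB2, or PAI-2, was listed in 7 libraries with 23 to 57 reads and was not tested.

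Among the metalloproteinases, 3 of 22 could be tested beside MMP14. After TXX-1-10, 2 were higher, against 34.7% of all genes of the 8-library fit. MMP1, interstitial collagenase, had 24, 22 and 29 reads in vehicle, 168 and 176 in rimonabant replicates 2 and 3, and 875, 917 and 984 in TXX-1-10. Its log2 fold change of 5.08 after TXX-1-10 (SE 0.12, edgeR adjusted p = 1.17e-11) and of 2.66 after rimonabant (edgeR adjusted p = 2.52e-07) exceeded that of every one of the 9 genes. The vehicle level was only 0.648 to 0.855 FPKM, so MMP1 reached the mean of 1 FPKM needed for testing through the treated libraries alone. The size of both changes rests on the few vehicle reads. In TXX-1-10 the level of MMP1 was 25.2 ± 2.05 FPKM, still below MMP14 at 90.7 ± 3.29. MMP19 rose by 1.35 after TXX-1-10, whereas MMP15, another membrane-type metalloproteinase, had a log2 fold change of -0.04 (edgeR adjusted p = 0.574). MMP2, the main target of MMP14 activation, had 0 reads in the 4 libraries that listed it, where 3 reads would correspond to 0.0328 to 0.0356 FPKM, a limit that covers counting error only. MMP9, another gelatinase, had 1 to 5 reads in the 4 libraries that listed it.

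Of the membrane partners of MMP14 and the TIMPs, FURIN, the convertase that activates MMP14 and ADAM17, rose slightly after both compounds (log2 fold change 0.27 and 0.34, edgeR adjusted p = 0.00405 and 0.00226). BSG, an inducer of metalloproteinases, did not pass in either comparison (0.13 and -0.05, smallest edgeR adjusted p = 0.206), and PCSK7, another convertase, was lower after TXX-1-10 (-0.40, edgeR adjusted p = 0.0115), with a log2 fold change of -0.24 without TXX-1-10 replicate 3 (edgeR adjusted p = 0.00309). RECK, a membrane inhibitor of MMP14, was listed in 7 libraries with 136 to 296 reads and was not tested, with levels of 2.82 and 2.87 FPKM in 2 vehicle libraries and 1.22 to 1.54 in TXX-1-10.

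Of 11 tested genes of the list of ADAM proteases and ADAM17 partners, 5 were higher and 4 lower after TXX-1-10. Over all genes, 30.5% were higher and 43.8% lower in the 9-library fit, and 34.7% and 40.6% in the 8-library fit. The inactive rhomboids RHBDF1 and RHBDF2, which carry ADAM17 to the cell surface, had log2 fold changes of 1.12 and 0.36 (edgeR adjusted p = 1.4e-08 and 0.000889). FRMD8, which stabilises that complex, rose by 0.74 (edgeR adjusted p = 4.37e-06). Of the tetraspanins tested in this list, TSPAN14 fell by 0.22 (edgeR adjusted p = 0.00346). TSPAN17 and TSPAN5 rose by 0.32 and 0.19 (edgeR adjusted p = 0.00267 and 0.0128). After rimonabant RHBDF1 (0.39) and FRMD8 (0.49) were higher (largest edgeR adjusted p = 0.00137), while RHBDF2 did not pass (-0.15, edgeR adjusted p = 0.175). The related sheddases ADAM10 and ADAM9 went the opposite way to ADAM17, and fell by 0.95 and 1.24 after TXX-1-10 (largest edgeR adjusted p = 2.3e-07) and by 0.51 and 0.78 after rimonabant (largest edgeR adjusted p = 9.75e-05). In vehicle ADAM10 lay above ADAM17 at 12.2 to 12.9 FPKM, and in TXX-1-10 it lay below it at 6.49 to 6.56 FPKM.

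Of 10 tested cathepsins and cystatins, 7 were higher and 1 lower after TXX-1-10, beside 30.5% and 34.7% higher over all genes of the 9-library and 8-library fits. They were led by CTSL (1.65) and CTSA (1.01), lysosomal proteases, with CTSC (-1.26) as the exception (largest edgeR adjusted p = 1.25e-07). Of 4 other serpins, SERPINB8 rose by 1.23 and SERPINH1, a collagen chaperone, fell by 0.33 after TXX-1-10 (largest edgeR adjusted p = 0.00164). All 3 tested ADAMTS genes passed after TXX-1-10, beside 75.3% of all genes of the 8-library fit. ADAMTS9 (-0.57) and ADAMTS16 (-0.36) were lower and ADAMTS1 (0.28) was higher (largest edgeR adjusted p = 0.0119). After rimonabant 0 of the 3 passed, beside 46.5% of all genes of that fit. ADAMTS16 was lowest in TXX-1-10 replicate 3, at 2.18 FPKM against 3.04 and 2.96 FPKM in replicates 1 and 2, and without that library its log2 fold change was -0.22 (edgeR adjusted p = 0.0204).

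**Figure D3:**
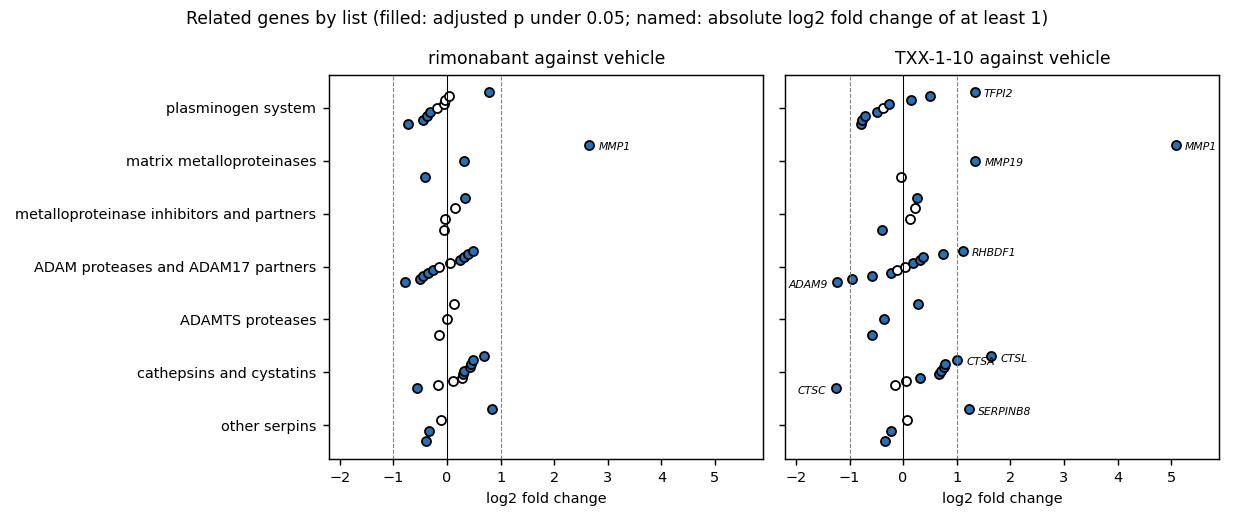
Log2 fold change (x axis) of the 44 tested related genes grouped by list (y axis) after rimonabant and after TXX-1-10, each against vehicle, with filled points for an adjusted p under 0.05, dashed lines at -1 and 1 and names for genes of at least that size. MMP1 stands at 2.66 after rimonabant and 5.08 after TXX-1-10, beyond all other genes.

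The genes with the pattern most like each of the 7 members measured in all libraries were found by the distance between centred group means of log2(FPKM + 1), over 3 groups, 9 libraries and 4236 genes. The 3 nearest to PLAU were TRA2B, DNMBP and DNMT1, and the 3 nearest to PLAT were COTL1, CDCA7L and GAS2L1. PLAUR was nearest to GCLM, GPT2 and MAP3K3, at distances of 0.109 to 0.152. TPBG, CLGN and DMPK were nearest to TIMP1, SPART, GBA2 and RGP1 to TIMP2, HMGN4, RPL30 and GPBP1 to MMP14, and ATG2A, ATP6V1B2 and ZFAS1 to ADAM17. For PLAUR the nearest genes lay farther away than for the other 6.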

How the data were processed

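Per the labels and the study's methods, total RNA was extracted with Trizol, polyadenylated RNA was selected and libraries were sequenced on Illumina instruments, and the submitters' processing notes name HISAT2 2.0.5 and featureCounts 1.5.0-p3. Each library's list, as deposited, holds a raw read count per gene in whole numbers. It also holds an FPKM value that the authors made from the count, the gene length and a library total, which was worked back from these values and used as library size. The last, incomplete line of each list was dropped.

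The counts were tested with edgeR 4.0.16 in R 4.3.3 (estimateDisp, glmQLFit, glmQLFTest) with treatment as the only term. One fit held the 9 libraries and the 4236 genes with a mean of at least 1 FPKM among the 4237 listed in all of them. Genes missing from rimonabant replicate 1 alone were taken from a fit of the other 8 libraries with 9369 genes of 9397. Adjustment was by Benjamini-Hochberg within each comparison. Standard errors, taken from the log2 fold change and its F statistic, are approximate. The common biological coefficient of variation was 0.0696 and 0.0604. No pair of replicates agreed within sampling noise (chi-square per degree of freedom 2.29 to 42.2). On simulated counts for TXX-1-10 against vehicle, 200 of 200 genes changed 3-fold were recovered with 0 false calls among 4236 genes. A call there needed an edgeR adjusted p under 0.05 and a log2 fold change of at least 1 in size. The simulated counts had the same dispersion for all genes and no length trend. The check therefore gives no rate of false calls by adjusted p alone in these libraries.

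The 9 genes, the related lists and the tests were chosen with earlier results of these data known. The genes named are the 9, related genes past a log2 fold change of 1 in size, direct partners of the 9 whatever their values (an item among them is not reported here), up to 2 per list with the largest change, the 3 nearest genes by pattern and the markers. Gene coordinates are those of GENCODE 29 (GRCh38), found for 27612 of 27615 genes. Protein sequences of the TIMPs were not compared here. There were 22 alternatives: TMM, DESeq2 1.42.0, median scaling, a gene length correction (lowess, span 0.3) with and without the replicate block, the block alone, no FPKM filter, a mean of at least 5 FPKM, limma 3.58.1 on log2(FPKM + 1) and log2(FPKM + 0.1), only the 2 groups compared, the 8 libraries alone, both libraries with a length trend left out, and each library left out in turn. Tables and plots were made in Python 3.11.15 with numpy 2.4.6, pandas 2.3.3 and matplotlib 3.10.9.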

Additional observations from a re-analysis of the deposited data

How the results depend on the processing

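Of 591 values of the 27 results on single genes, 556 kept their direction and their side of an adjusted p of 0.05. The 7 that turned direction were all PLAUR in TXX-1-10 against rimonabant, which passed in none of the 22 settings, with 0.0222 under TMM, 0.0226 under DESeq2, 0.0226 under median scaling, 0.0373 with the length correction, 0.0366 with the length correction and replicate block, and 0.000286 and 0.000288 without rimonabant replicate 1 in the wider and the narrower fit, on the log2 scale. Leaving out 1 library at a time moved it from -0.14 to 0.000288. The cause was not tested. Calls were lost 19 times (MMP14 in TXX-1-10 against rimonabant, PLAU and ADAM17 in rimonabant against vehicle) and gained 9 times (MMP14 in rimonabant against vehicle, TIMP3 in TXX-1-10 against rimonabant). All 9 genes passed in TXX-1-10 against vehicle in each setting that tested them, where a mean of at least 5 FPKM left out TIMP3. Of the 6 past a log2 fold change of 1 in size there, 4 to 6 remained past it when 1 library was left out, with 4 without TXX-1-10 replicate 2 (TIMP3 and ADAM17 under 1), 4 under limma on log2(FPKM + 1) and 5 under TMM, DESeq2 and median scaling. In rimonabant against vehicle 6 to 9 genes passed when 1 library was left out, and 6 to 7 between the compounds. The count of related genes beyond that size when the compounds were compared was 2 in the reported fit, 1 with a mean of at least 5 FPKM, 1 under limma on log2(FPKM + 1), and 2 to 3 when 1 library was left out. Of 21 nearest genes by pattern 12 were kept with log2(FPKM + 0.1).

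The median log2 fold change of all genes in TXX-1-10 against vehicle was -0.09 with the library totals and 0.01 with DESeq2, so that fold changes there shift up by about that difference. The share of passed genes that were higher moved from 41.1% to 50.0% under TMM in that comparison and from 39.0% to 50.6% in TXX-1-10 against rimonabant, with no change of direction for the 9 genes other than PLAUR. Of 9 correlations between same-numbered libraries, 1 was over 0.1 (range -0.789 to 0.8), and a library correlated best with its own number in 5 of 18 checks. In the treated groups the length trend fell on libraries of different number, rimonabant replicate 1 and TXX-1-10 replicate 3. These checks therefore cannot tell whether the replicate numbers pair the libraries. With the replicate number as a block 9, 8 and 6 of the 9 genes passed in TXX-1-10 against vehicle, rimonabant against vehicle and TXX-1-10 against rimonabant. The lists end at different points of an order from high to low counts, so genes missing from a list or under a mean of 1 FPKM are not described here.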
